A study of Arabidopsis thaliana with 15 samples.

Results

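Expansins are secreted wall proteins that loosen the plant cell wall without cutting it, by disturbing the noncovalent contacts between cellulose and the matrix polymers, and they act best when the wall is acidic. The alpha-expansins (EXPA) are the larger subfamily in Arabidopsis, and the beta-expansins (EXPB) include, in grasses, major pollen allergens. The expansin-like A and B genes (EXLA and EXLB) are placed in the superfamily by their sequence. A pollen tube grows at its tip and has to extend its wall there continuously, and a tube inside a pistil passes between the walls of the stigma, style and transmitting tract.

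The list held 35 expansin and expansin-like loci of Arabidopsis thaliana, and 21 of them pair with a probe set of their own on the ATH1 array and are described here, out of 15143 genes that a probe set of their own names and 22746 probe sets tested. They are 12 of 25 EXPA loci, 5 of 6 EXPB loci, 3 of 3 EXLA loci and 1 of 1 EXLB locus. A total of 18 were named from the platform's gene table. The other 3 (EXP3, EXPA6 and EXPB4) were named only from AGI codes in the study's supplementary tables, and the suffix of the EXPB4 probe set (266134_s_at) marks probes that can match more than 1 transcript. A further 4 loci (EXPA22 with EXP26, and EXPA23 with EXPA25) share 2 probe sets and were left out, with signals between 4.70 and 104 on every array. The remaining 10 loci (EXPA1, EXPA2, EXPA5, EXPA10, EXPA11, EXPA12, EXPA13, EXPA14, EXPA17 and EXPB6) were not analysed here, because none of the tables used names a probe set for them.

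All pollen was wild-type Columbia (Col-0). The 4 conditions were pollen tubes grown through cut pistils by the semi in vivo method (SIVPT, 3 arrays), dry pollen (4 arrays), and pollen after 0.5 h (0.5hPT, 4 arrays) and 4 h (4hPT, 4 arrays) in liquid growth medium. The pistils came from the male-sterile line ms1 in the Landsberg background, and the labels give 3 h in the pistil followed by 5 h on solid medium, where the study's methods state a shorter time on medium. For SIVPT, bundles of tubes that had emerged from the cut end were excised and pooled over many pistils, so these samples hold tubes without grains, whereas 4hPT also held grains that had not germinated. Growth through a pistil, the solid medium, the longer time, the missing grains and a smaller amount of starting RNA all separate SIVPT from the other conditions and cannot be told apart here. The labels call the replicates biological without describing how they were separated, so the tests below measure the spread between these samples.

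The value for each probe set is the deposited signal, a linear intensity scaled to the same trimmed mean on each array. Replicates correlated at 0.928 to 0.967 over all probe sets. The 100 brightest probe sets took 23.3% to 25.0% of the signal in SIVPT, against 27.9% to 32.7% in the other conditions. The 3′ to 5′ signal ratio of the array's GAPDH control (GAPDH_3_s_at), a sign of RNA length, was 6.59 to 9.72 in SIVPT and 1.25 to 2.88 in the other conditions, and of 6 such control pairs 3 were higher in SIVPT without overlap. List genes are called measured where the tables used name a probe set of their own, and the array may also hold probe sets for the others. The study reports ROP1, ACA9 and RabA4d, pollen markers of the list not measured here, as expressed in all its pollen conditions. All 5 measured pollen marker genes of a list of 11 had a mean log2 signal of at least 8 in every condition, the limit used below for a clear signal. Their summed signal was 33679 to 43086 in SIVPT, against 106430 to 115848 in dry pollen, 106828 to 114565 in 0.5hPT and 95255 to 123686 in 4hPT. MGD2 and AGL18 make up most of this sum, and 2 of the 5 markers fell in SIVPT vs dry pollen (AGL18 and AGL66) and 2 in SIVPT vs 4hPT (AGL18 and MGD2), while CNGC18 and AGL104 were not called in either. None of the 4 measured pistil markers (of 10 listed) reached the limit, and their summed signal was 141 to 404 in SIVPT and 150 to 395 in the other conditions. The 1 measured green tissue marker, RCA, also stayed below it, at 109 to 199 in SIVPT and 53.2 to 205 in the other conditions, and none of 4 tapetum and pollen coat markers was measured.

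Signal of the superfamily came from few genes. EXPA4, EXPB5 and EXPA16 reached the limit in all 4 conditions, EXPA24 reached it in dry pollen, 0.5hPT and 4hPT, and EXPA7 reached it in SIVPT. Thus 4 of the 21 members were above the limit in each condition. Of all probe sets, 26.3% were above it in SIVPT, 21.7% in dry pollen, 21.9% in 0.5hPT and 22.5% in 4hPT, so the members' share was near this background. The other 16 members (EXP3, EXPA6, EXPA8, EXPA9, EXPA15, EXPA18, EXPA20, EXPA21, EXPB1, EXPB2, EXPB3, EXPB4, EXLA1, EXLA2, EXLA3 and EXLB1) reached it in no condition. Their highest signal on any array was 331, and their condition means ran from 6.80 to 247. Expansin-like genes were among these throughout, since none of the 3 EXLA genes and EXLB1 reached the limit.

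**Figure D1:**
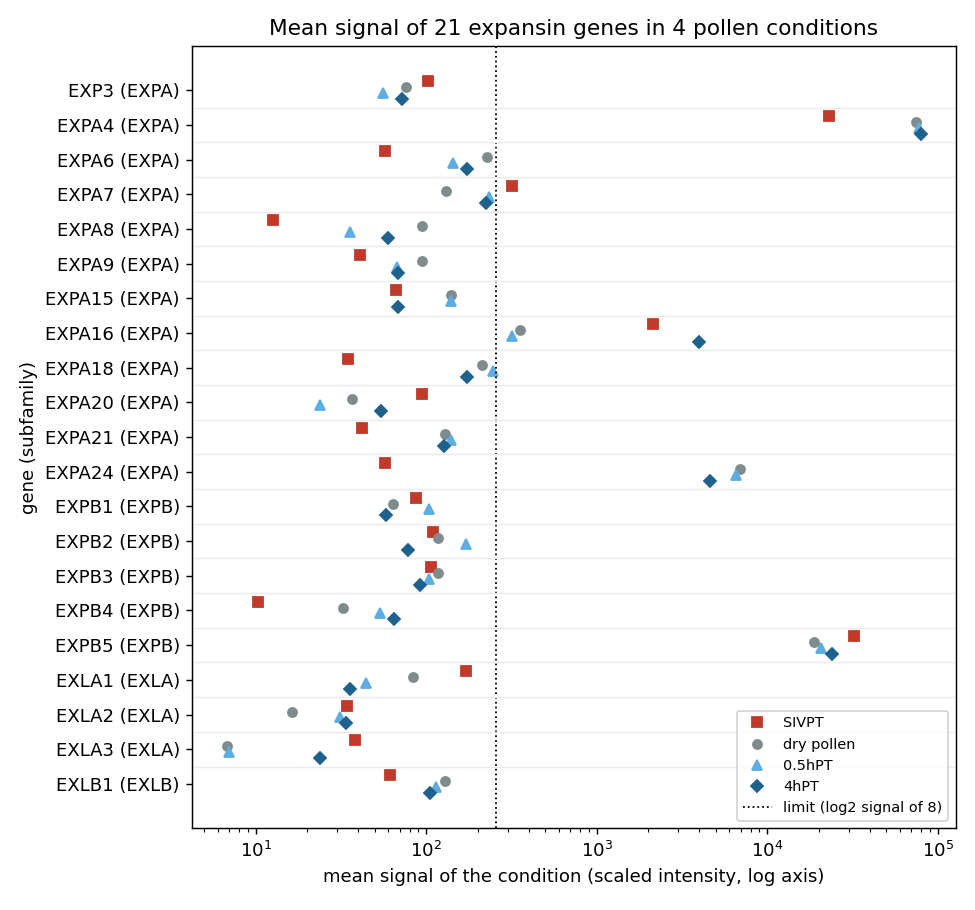
Mean signal (scaled intensity, log axis) of each of the 21 expansin genes in SIVPT, dry pollen, 0.5hPT and 4hPT, 1 row per gene with its subfamily in brackets and a dotted line at a log2 signal of 8. EXPA4, EXPB5 and EXPA16 lie to the right of the line in all 4 conditions, EXPA24 in all but SIVPT, and most other genes to the left in all 4.

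Differences between conditions were tested with limma on log2(signal + 64), and a gene was said to have risen or fallen where the log-odds of change (B) was above 3 and the change at least 3-fold, which are the study's limits. Fold changes are on this offset scale, which understates the change of low signals. In bulk RNA, fewer transcripts per tube and fewer expressing cells cannot be told apart. In SIVPT vs dry pollen, 2 of the 21 members (9.52%) fell, 0 rose and 19 did not pass. Of all probe sets tested, 6.91% were called in this comparison, with 2.82% that fell and 4.08% that rose, so the members' share was near this background. In the same comparison 11 members had an unadjusted p under 0.05 (4 higher, 7 lower in SIVPT). The share of all probe sets under this p was not counted, so this number cannot be read as a trait of the family. The median change was -0.14 over the members and -0.06 over all probe sets. In SIVPT vs 4hPT, 2 members again fell, 0 rose and 19 did not pass, beside 4.79% of all probe sets called, 2.08% that fell and 2.71% that rose. There 6 members had an unadjusted p under 0.05 (1 higher, 5 lower), again without a count over all probe sets. The median change was -0.08 over the members and -0.07 over all probe sets. The 2 members were EXPA4 and EXPA24 in both comparisons, which share the SIVPT arrays.

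EXPA4 (AT2G39700, 267590_at) is an alpha-expansin of the wall. Its signal was 22064, 25952 and 21432 in SIVPT, against 69986, 70827, 83439 and 72391 in dry pollen. In medium it was 81144, 82628, 74267 and 72243 at 0.5 h, and 82074, 85737, 78539 and 72008 at 4 h. The 3 SIVPT arrays lie below the 12 others without overlap, and the arrays of the other 3 conditions overlap one another. The means were 23149 ± 2448 in SIVPT, 74161 ± 6265 in dry pollen, 77571 ± 5088 in 0.5hPT and 79590 ± 5846 in 4hPT (SD, n = 3, 4, 4 and 4). EXPA4 fell 3.20-fold in SIVPT vs dry pollen (log2 change -1.68 ± 0.15 SE, limma adjusted p = 4.27e-07) and 3.44-fold in SIVPT vs 4hPT (-1.78 ± 0.15, limma adjusted p = 4.83e-07). Among the other 3 conditions its changes stayed between 0.04 and 0.10, and the interval of the largest, 4hPT vs dry pollen, ran from -0.20 to 0.40.

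The size of the EXPA4 fall depends on how the arrays are scaled. After quantile normalization, which gives the SIVPT arrays the same bright end as the others, the log2 changes were -0.79 vs dry pollen and -0.81 vs 4hPT, in the same direction but under 3-fold, and neither was called. The summed pollen marker signal and the share of signal in the brightest probe sets given above were also lower in SIVPT, and the control 3′ to 5′ ratios higher, and their part in the EXPA4 change was not tested.

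EXPA24 (AT5G39310, 249503_at), the other alpha-expansin that fell, had signals of 88.7, 6.02 and 77.5 in SIVPT. It had 4483, 5740, 8309 and 9173 in dry pollen and 6209, 9267, 5146 and 5527 in 0.5hPT. In 4hPT its signals were 6744, 8376, 2022 and 1432, so replicates 3 and 4 were clearly lower than replicates 1 and 2. Every SIVPT array is below the limit of 8 on the log2 scale, and every array of the other conditions is far above it. The means were 57.4 ± 44.9 in SIVPT, 6926 ± 2186 in dry pollen, 6537 ± 1872 in 0.5hPT and 4644 ± 3441 in 4hPT. The log2 change was -5.87 ± 0.52 in SIVPT vs dry pollen (limma adjusted p = 3.41e-07) and -4.99 ± 0.52 in SIVPT vs 4hPT (limma adjusted p = 3.26e-06), which is 58.5-fold and 31.9-fold lower. Since the SIVPT signals are close to the offset, these folds depend on it: with an offset of 16 the changes were -6.80 and -5.91. With quantile normalization they were -5.73 and -4.93, and both calls held. The lower values of EXPA24 after 4 h in medium did not pass, at -0.88 ± 0.48 in 4hPT vs dry pollen (adjusted p = 0.482) and -0.81 ± 0.48 in 4hPT vs 0.5hPT (adjusted p = 0.581).

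EXPA24 is the last of 6 expansin genes that follow one another with no other protein-coding gene between them on chromosome 5, in the order EXPA21, EXPA22, EXPA23, EXP26, EXPA25, EXPA24 in the RefSeq gene order of assembly TAIR10.1. EXPA21, the only other one with its own probe set, did not reach the limit in any condition, with means of 42.2 ± 50.6 in SIVPT, 130 ± 70.0 in dry pollen, 140 ± 59.5 in 0.5hPT and 127 ± 110 in 4hPT. The 2 shared probe sets that cover the 4 genes between them did not reach it either. A clear signal within this run of genes was thus seen for EXPA24 and for none of the other probe sets. Of the other adjacent pairs, EXLA3 and EXLA1 were both below the limit in all conditions, and EXPB2, which lies beside EXPB6, was below it too.

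EXPB5 (AT3G60570, 251397_at) was the one beta-expansin with a clear signal. It had 26576, 26304 and 44492 in SIVPT, and 22438, 18159, 17314 and 17129 in dry pollen. In medium it had 24407, 22511, 18528 and 17783 at 0.5 h, and 24205, 23689, 22434 and 25454 at 4 h. All SIVPT arrays are above the 12 others, and SIVPT replicate 3 stands well above the other 2. The means were 32457 ± 10423 in SIVPT, 18760 ± 2492 in dry pollen, 20807 ± 3173 in 0.5hPT and 23946 ± 1250 in 4hPT. The log2 change was 0.75 ± 0.20 in SIVPT vs dry pollen (limma adjusted p = 0.0120) and 0.39 ± 0.20 in SIVPT vs 4hPT (limma adjusted p = 0.213), below the 3-fold limit in both. Without SIVPT replicate 3 these changes were 0.50 and 0.14. With quantile normalization the change vs dry pollen was 1.72, which passed the limits, and the change vs 4hPT was 1.25, which did not. The other 4 beta-expansins measured, EXPB1, EXPB2, EXPB3 and EXPB4, had means between 10.3 and 171 in all conditions, and none was called in any comparison.

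EXPA4 was thus lower and EXPB5 higher on the SIVPT arrays than on the others, and their ratio within each array, which does not change when an array is multiplied by a factor, was taken after these values were seen and not tested. The 2 probe sets need not respond alike, so only the change of the ratio between conditions is read here, and not its absolute value. A ratio within an array removes only a factor common to both probe sets. The control 3′ to 5′ ratios given above also set SIVPT apart, and their part in the change of this ratio was not tested. EXPA4 over EXPB5 was 0.830, 0.987 and 0.482 in SIVPT. It was 3.12 to 4.82 in dry pollen, 3.32 to 4.06 in 0.5hPT and 2.83 to 3.62 in 4hPT, so the SIVPT arrays are apart from the 12 others. After quantile normalization the ratio was 0.478 to 0.983 in SIVPT and 2.58 to 4.73 in the others. Quantile normalization keeps the order of probe sets within an array. The EXPA4 signal was therefore bound to stay below that of EXPB5 in SIVPT and above it in the others, so the separation is no check on the scaling. Only the size of the ratios was free to change, and it changed little.

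**Figure D2:**
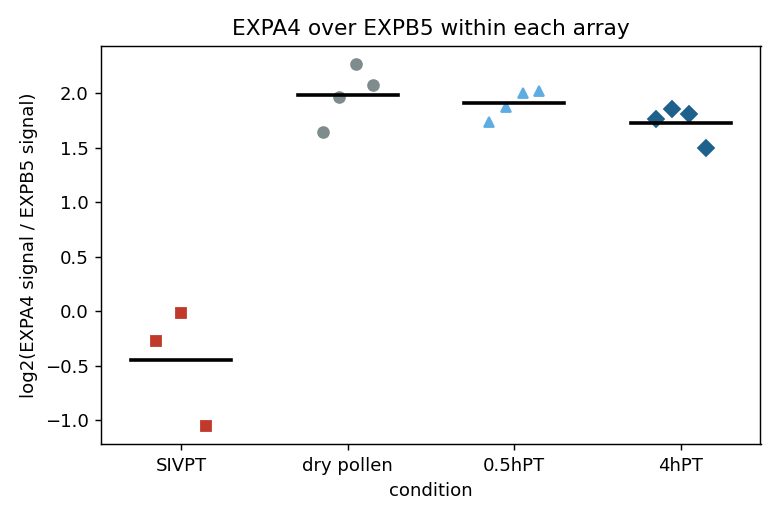
The log2 ratio of EXPA4 signal to EXPB5 signal within each of the 15 arrays, by condition, with a bar at the condition mean. The 3 SIVPT arrays, with ratios of 0.482 to 0.987, lie apart from the 12 arrays of dry pollen, 0.5hPT and 4hPT, with ratios of 2.83 to 4.82, a difference between conditions that says nothing of which gene has more transcript.

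EXPA16 (AT3G55500, 251791_at) was the one member called in the comparisons among dry pollen, 0.5hPT and 4hPT. Smaller changes of other members can fall short of these limits. In SIVPT its signal was 2119, 2447 and 1846. In dry pollen it was 356, 155, 423 and 495, and in 0.5hPT it was 266, 463, 239 and 306, so these 2 conditions overlap. In 4hPT it was 5880, 4727, 1601 and 3768, with replicate 3 the lowest. The means were 2137 ± 301 in SIVPT, 357 ± 146 in dry pollen, 319 ± 100 in 0.5hPT and 3994 ± 1814 in 4hPT. Every array of 4hPT and SIVPT is above every array of dry pollen and 0.5hPT.

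EXPA16 rose 9.24-fold in 4hPT vs dry pollen (log2 change 3.21 ± 0.36, limma adjusted p = 7.08e-05) and 9.83-fold in 4hPT vs 0.5hPT (3.30 ± 0.36, limma adjusted p = 0.000112). These 2 comparisons share the 4hPT arrays. It was the only member called in each, 1 of 21 (4.76%) with 0 falling and 20 that did not pass, beside 0.765% of all probe sets called in 4hPT vs dry pollen (0.717% rose and 0.0484% fell) and 0.510% in 4hPT vs 0.5hPT (0.510% rose and 0.00% fell). The median change over the members was -0.15 in 4hPT vs dry pollen and -0.06 in 4hPT vs 0.5hPT, beside 0.01 and 0.00 over all probe sets. In SIVPT vs dry pollen the change was 2.46 ± 0.39 (limma adjusted p = 0.000154), 5.50-fold, but B was 2.99 and the gene did not pass. It did pass without 4hPT replicate 1 or 3, arrays that enter this comparison only through the shared estimate of the spread, and with median centring (2.55), with a limit on the adjusted p in place of B, and with an intensity trend in the fit. In SIVPT vs 4hPT the change was -0.75 ± 0.39 (limma adjusted p = 0.215), with an interval from -1.58 to 0.08, so a difference of up to about the 3-fold limit is within the error. Without 4hPT replicate 3 it was -1.13. The order of levels was 4hPT, SIVPT, dry pollen and 0.5hPT, in which only the step between SIVPT and dry pollen exceeded the spread of the arrays.

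EXPA7 (AT1G12560, 259525_at), known as an expansin of root hairs, which also grow at the tip, was near the limit. Its signal was 240, 395 and 316 in SIVPT, and 149, 121, 48.1 and 208 in dry pollen. It was 162, 208, 213 and 355 in 0.5hPT and 178, 146, 215 and 361 in 4hPT. The SIVPT arrays are above the dry pollen arrays, but they overlap those of 0.5hPT and 4hPT. The means were 317 ± 77.4 in SIVPT, 131 ± 66.3 in dry pollen, 235 ± 83.4 in 0.5hPT and 225 ± 94.8 in 4hPT. The log2 change was 1.01 ± 0.31 in SIVPT vs dry pollen (limma adjusted p = 0.0249) and 0.43 ± 0.31 in SIVPT vs 4hPT (limma adjusted p = 0.398), and neither passed the limits.

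**Figure D3:**
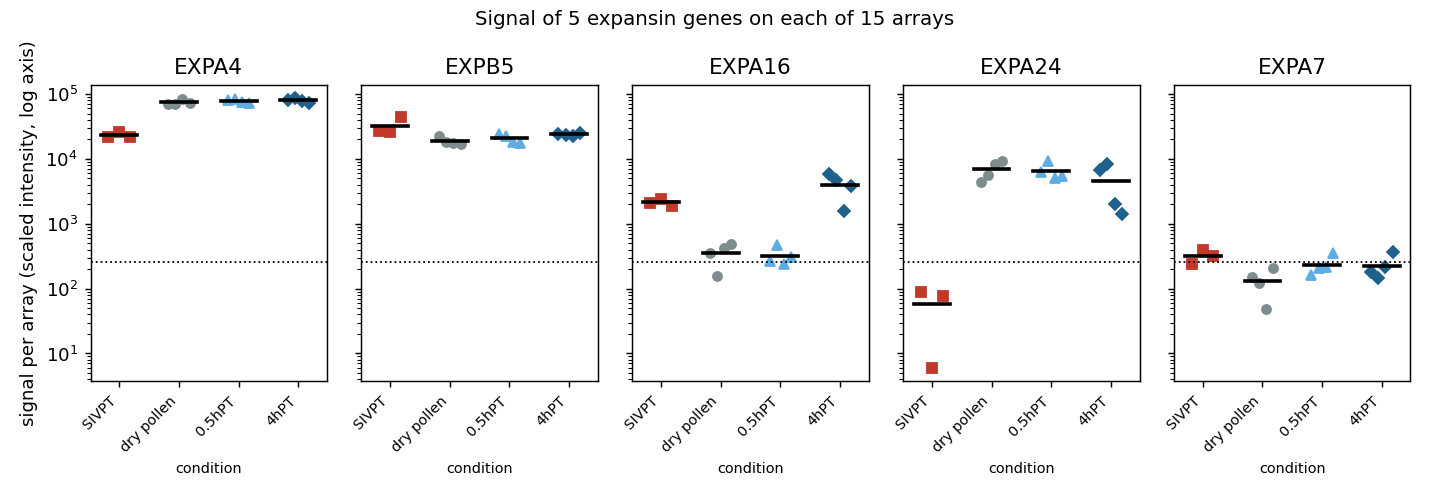
Signal (scaled intensity, log axis) of EXPA4, EXPB5, EXPA16, EXPA24 and EXPA7 on each of the 15 arrays in SIVPT, dry pollen, 0.5hPT and 4hPT, with a bar at the condition mean and a dotted line at a log2 signal of 8. EXPA24 lies below the dotted line on the 3 SIVPT arrays and above it on the 12 others, and EXPA16 is higher on every 4hPT and SIVPT array than on any dry pollen or 0.5hPT array.

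Members below the limit of signal in all conditions were not called, but 3 of them, chosen after their values were seen, had an adjusted p under 0.05. The share of all probe sets under this adjusted p was not counted, so this number cannot be read as a trait of these genes. EXPA6 had signals of 75.4, 43.3 and 54.4 in SIVPT and 184, 235, 263 and 230 in dry pollen, with 137, 112, 128 and 199 in 0.5hPT and 205, 173, 181 and 136 in 4hPT. The 3 SIVPT arrays are the lowest of the 15. Its log2 change was -1.26 ± 0.18 in SIVPT vs dry pollen (limma adjusted p = 7.08e-05), 2.40-fold lower and so under the limit of fold, and with an offset of 16 it was -1.74 and passed. In SIVPT vs 4hPT it was -0.96 ± 0.18 (limma adjusted p = 0.00111) and did not pass. EXPA18, which like EXPA7 is known from root hairs, had 60.7, 12.5 and 31.2 in SIVPT and 217, 148, 231 and 253 in dry pollen. It had 150, 331, 227 and 282 in 0.5hPT and 165, 241, 24.6 and 266 in 4hPT, where replicate 3 lies within the SIVPT range. The change was -1.50 ± 0.37 in SIVPT vs dry pollen (limma adjusted p = 0.00697) and -1.13 ± 0.37 in SIVPT vs 4hPT (limma adjusted p = 0.0411), and it did not pass. EXLA1 was 179, 213 and 124 in SIVPT, 4.13, 103, 124 and 103 in dry pollen, 64.7, 13.0, 7.35 and 91.7 in 0.5hPT, and 6.50, 55.4, 48.9 and 32.2 in 4hPT. Its SIVPT arrays are above the other 12, by less than 1 unit at the closest, and the change was 1.25 ± 0.36 in SIVPT vs 4hPT (limma adjusted p = 0.0184), below the limits. In SIVPT vs dry pollen the EXLA1 change was 0.76 ± 0.36, with a limma adjusted p of 0.150. At signals of this size none of these genes can be said to be absent or present, and only the differences between arrays are given.

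After 0.5 h in medium no member had changed by these limits. In 0.5hPT vs dry pollen 0 of 21 members were called by limma, beside 0.0615% of all probe sets (0.0264% rose and 0.0352% fell). An unadjusted p under 0.05 was found for 2 members, EXPA6 at -0.50 and EXPA7 at 0.64, with limma adjusted p of 0.597 and 0.796. The share of all probe sets under this unadjusted p was not counted. The members' changes ran from -0.54 to 0.64 on the log2 scale with a median of 0.00, against 0.01 over all probe sets. Levels of EXPA4, EXPB5, EXPA16 and EXPA24 after 0.5 h were thus not distinguishable from those of dry pollen at this number of arrays.

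**Figure D4:**
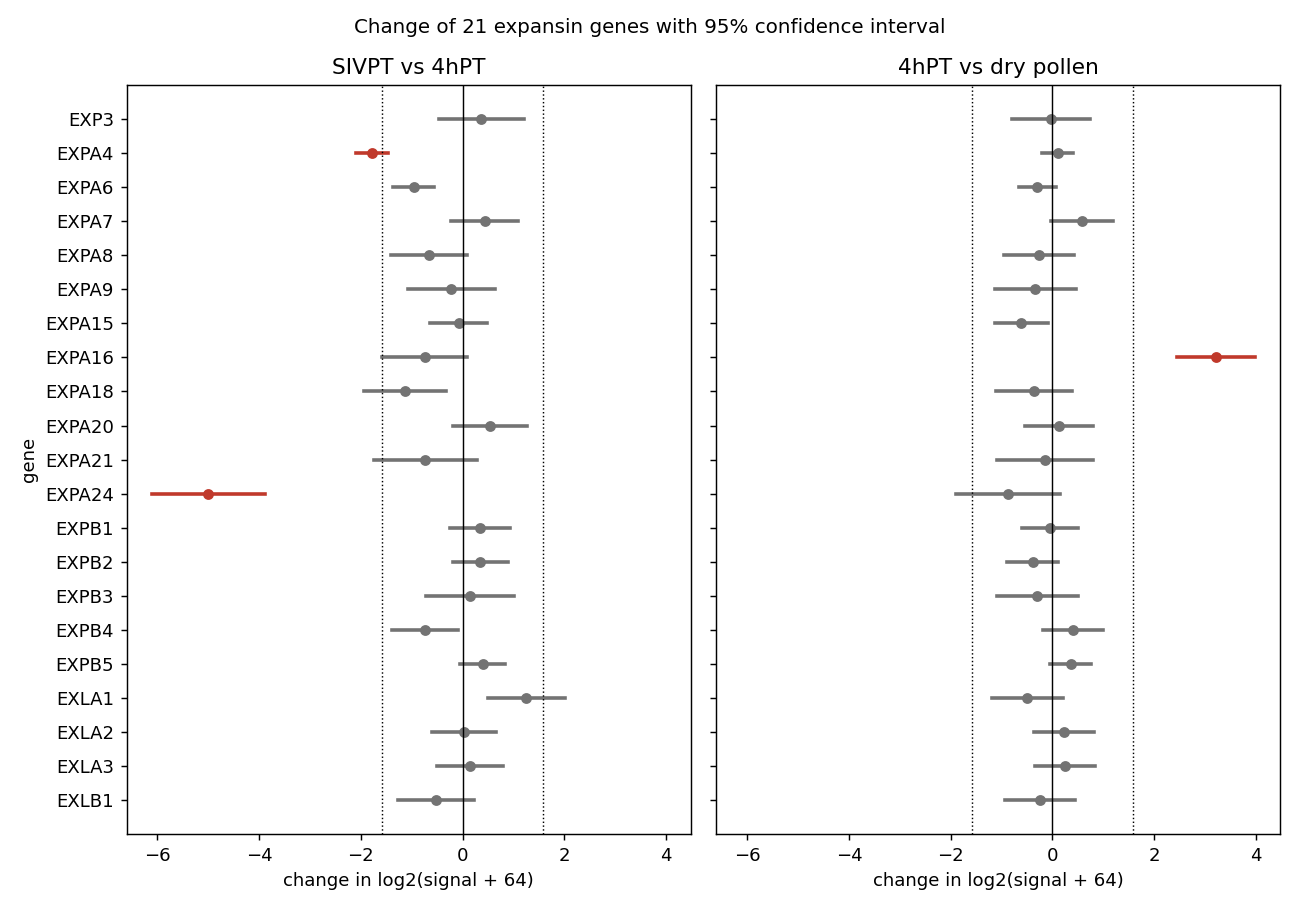
Log2 change of each of the 21 expansin genes in SIVPT vs 4hPT and in 4hPT vs dry pollen, with the 95% confidence interval, a solid line at no change and dotted lines at 3-fold. Called genes are in red: EXPA4 at -1.78 and EXPA24 at -4.99 in the comparison of SIVPT with 4hPT, and EXPA16 at 3.21 in that of 4hPT with dry pollen.

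The signal summed over the 21 members on each array, in which EXPA4 has the highest mean, was 59192 ± 8801 in SIVPT, 101914 ± 6618 in dry pollen, 106952 ± 9544 in 0.5hPT and 113688 ± 9908 in 4hPT. Without EXPA4 it was 36043 ± 10041 in SIVPT, 27753 ± 1353 in dry pollen, 29381 ± 4510 in 0.5hPT and 34099 ± 5134 in 4hPT, and the SIVPT range (30116 to 47637) then overlapped that of 4hPT (27688 to 38338). The order of the sums depends on the scaling: with quantile normalization they were 100146 in SIVPT, 94645 in dry pollen, 95748 in 0.5hPT and 103251 in 4hPT, so that SIVPT was then above dry pollen and 0.5hPT instead of below them. A sum over probe sets is a description of signal and not of molecules.

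Wall loosening by expansins depends on an acidic wall, which plasma membrane proton pumps provide, and works beside the XTH enzymes, which cut and rejoin xyloglucan. Of 11 pump genes, 3 were measured, that is, paired with a probe set of their own. All 3 were above the limit in all 4 conditions. HA6 (AHA6) rose in SIVPT, with a mean signal of 10449 ± 1429 in SIVPT, against 1792 ± 224 in dry pollen, 1596 ± 180 in 0.5hPT and 1492 ± 338 in 4hPT. Its log2 change was 2.50 ± 0.20 in SIVPT vs dry pollen (limma adjusted p = 9.63e-08) and 2.77 ± 0.20 in SIVPT vs 4hPT (limma adjusted p = 7.81e-08). HA9 (AHA9) rose in SIVPT vs 4hPT (2.49 ± 0.25, limma adjusted p = 2.60e-06), with 4268 ± 246 in SIVPT, 1625 ± 728 in dry pollen, 1058 ± 188 in 0.5hPT and 708 ± 24.7 in 4hPT. It did not pass in SIVPT vs dry pollen (1.45 ± 0.25), except when dry pollen replicate 2 was left out (1.71). HA9 was also lower in 4hPT than in dry pollen, at -1.04 ± 0.23 (limma adjusted p = 0.0260), which did not pass. Thus 1 of 3 pumps rose in SIVPT vs dry pollen and 2 of 3 rose in SIVPT vs 4hPT, with 0 falling in either, where 4.08% and 2.71% of all probe sets rose.

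Of 33 XTH genes, 15 were measured, and 2 rose and 0 fell in each of these 2 comparisons, beside 4.08% of all probe sets that rose and 2.82% that fell in SIVPT vs dry pollen, and 2.71% and 2.08% in SIVPT vs 4hPT. They were XTH11, at 382 ± 135 in SIVPT, 22.5 ± 12.9 in dry pollen, 42.2 ± 53.5 in 0.5hPT and 22.6 ± 6.07 in 4hPT, and XTH18, at 309 ± 78.8 in SIVPT, 17.9 ± 13.5 in dry pollen, 55.8 ± 30.4 in 0.5hPT and 35.2 ± 40.3 in 4hPT. The log2 changes were 2.34 ± 0.29 (XTH11) and 2.18 ± 0.28 (XTH18) vs dry pollen, and 2.33 ± 0.29 and 1.96 ± 0.28 vs 4hPT, at signals below the limit in all conditions but SIVPT. With the larger offset neither was called in either comparison. The XTH18 call was also lost vs 4hPT with an offset of 16 or an intensity trend, without 4hPT replicate 1, 2 or 3, and in both comparisons without SIVPT replicate 1 or 2. In the comparisons among dry pollen, 0.5hPT and 4hPT, no measured pump or XTH gene was called.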

How the data were processed

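RNA of 15 samples was hybridized to ATH1 arrays, and the authors deposited a linear signal intensity per probe set, made with GCOS and scaled to a common trimmed mean. The values the study itself tested came from another normalization and cannot be rebuilt from these signals. Depth has no counterpart here, and the number of arrays limits the precision. The 64 control probe sets were left out. For the other 22746, log2(signal + 64) was fitted with limma 3.58.1 in R 4.3.3, with a mean per condition over all arrays (11 residual and 3.97 prior degrees of freedom), and p-values were adjusted by Benjamini-Hochberg within each of 5 comparisons. Members called in any comparison or above the signal limit in any condition were named with all values. Of listed XTH and pump genes, up to 4 called per list were named. The members, lists and rules were chosen with earlier results of these data known. The fit was tested on simulated data. Offset, scaling, calling rule, trend, filter, a replicate block and leaving out each array were varied. Gene names are from the platform's table, the supplementary AGI codes and RefSeq (TAIR10.1).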

Additional observations from a re-analysis of the deposited data

Results flagged for a closer look

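In 6 of 63 groups of 4 arrays, 1 array stood far from the other 3 by Dixon's test, where chance alone is expected to flag about 1 group in 20. The SIVPT groups, of 3 arrays each, were not put to this test, among them EXPB5, whose higher replicate 3 is given above. All 6 flagged groups are of members below the limit of signal in every condition. EXP3 had 157 in 0.5hPT replicate 4 and 13.0 to 28.2 in the others of that condition. EXPA15 had 220 in dry pollen replicate 3 and 110 to 118 in the others. EXPA21 had 51.1 in 0.5hPT replicate 3 and 165 to 178 in the others. EXPB3 had 12.0 in 0.5hPT replicate 3 and 129 to 139 in the others. EXLA1 had 4.13 in dry pollen replicate 1 and 103 to 124 in the others. EXLA3 had 76.0 in 4hPT replicate 3 and 5.90 to 7.31 in the others.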

How the results depend on the processing

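Low signals limit 16 of the 21 members, whose changes depend on the offset, and bright genes depend on the scaling. The calls of EXPA24 in both SIVPT comparisons and of EXPA16 in 4hPT held under every alternative run. With quantile normalization 1 member instead of 2 was called in SIVPT vs 4hPT, EXPA4 in 0.5hPT vs dry pollen turned to -0.00592, and the summed member signal was 100146 in SIVPT, 94645 in dry pollen, 95748 in 0.5hPT and 103251 in 4hPT. Without EXPA4 the sums were 36043, 27753, 29381 and 34099 in the same order. With the larger offset 111 instead of 174 probe sets were called in 4hPT vs dry pollen and 5 instead of 14 in 0.5hPT vs dry pollen. At a log2 limit of 7, 7 members were above it in dry pollen and 9 in 0.5hPT. EXLA1 (mean log2 signal 7.39) was then also above it in SIVPT, and EXPA6 (7.42) and EXPA7 (7.73) in 4hPT. With median centring EXPA4 in 4hPT vs 0.5hPT turned to -0.00178. The changes of 4 genes that were not called spanned 0 when single arrays were left out. EXPA4 in 4hPT vs 0.5hPT ran from -0.00034 to 0.084, EXPA16 in 0.5hPT vs dry pollen from -0.38 to 0.075, EXPA24 in 0.5hPT vs dry pollen from -0.25 to 0.088, and EXPA7 in 4hPT vs 0.5hPT from -0.26 to 0.11. The cause of these differences was not tested. Of the other single-gene values, those that changed a call are given beside the genes above.

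The labels do not say whether equal replicate numbers mark paired samples. Deviations from the condition means correlated at -0.020 to 0.041 between arrays of the same number (21 pairs). Between the others (63 pairs) they correlated at -0.051 to 0.029. For 0.5hPT with 4hPT, all pairs of the same number were positive, at 0.021 to 0.037. The others of these 2 conditions ran from -0.043 to 0.024. These values are all small and cannot settle whether samples were paired. With the replicate number as a block, 1516 probe sets were called in SIVPT vs dry pollen, 1056 in SIVPT vs 4hPT, 164 in 4hPT vs dry pollen, 116 in 4hPT vs 0.5hPT and 15 in 0.5hPT vs dry pollen, against 1571, 1090, 174, 116 and 14 without it, and the block changed the call of no member.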
